A study of Eurytemora affinis with 18 samples.

Results

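The 200 genes described here were the most male-biased genes of adult copepods exposed to the highest concentration of tebufenozide (TEB), an insecticide that mimics the moulting hormone 20-hydroxyecdysone. They were chosen in 6 of the 18 libraries of the study, those of both sexes at 50 µg/L. Of the 23728 genes counted, 3472 had a mean of at least 50 CPM (counts per 1000000 counts of the library) in these males after 7 genes had been set aside, and the 200 with the highest log2((male CPM + 1)/(female CPM + 1)) were kept. This ratio ran from 11.84 for LOC111702461 to 5.95 for LOC111714388, at rank 200, with means of 93.7 CPM in males and 0.530 CPM in females. The next gene outside, LOC111717556, had 63.2 and 0.0418 CPM and a ratio of 5.95 as well, so the list ends on a continuous slope. As the 50 µg/L libraries chose the genes, their values at that concentration are described without a test. The tests between the sexes rest on the controls and the 0.5 µg/L libraries, which the choice did not use.

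Eurytemora affinis is a small estuarine crustacean in which the sexes differ in body size, antennae and swimming legs as well as in the gonads. In animals with separate sexes, genes with RNA almost entirely in males are mostly known from the testis and the glands that make seminal products. A male copepod packs its sperm into a spermatophore and attaches it to the body of the female.

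Each library came from a pool of 30 whole adults of 1 sex, the females without eggs, taken from a stock collected in an estuary. Males and females were kept for 72 h in solvent control water, or at nominal TEB concentrations of 0.5 or 50 µg/L, and all the water, controls included, held the same amount of acetone. In the paper, TEB measured in the 50 µg/L water was well below nominal. In the 0.5 µg/L water it was below the quantification limit. There were 3 pools for each sex and concentration, and the RNA of whole animals does not show which organ a transcript came from. All libraries of controls and of 0.5 µg/L except female 0.5 µg/L replicate 3 were read on one flow cell type (High Output), and that library and all those at 50 µg/L on another (Mid Output).

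Male libraries held between 3882407 and 10468479 counts on genes and female libraries between 7983412 and 17114866. In the males, 4 libraries stood apart by RNA of genes high in females. For this, 200 genes high in females were picked by the mirrored rule on the 50 µg/L libraries. That choice favours low shares in males and high shares in females at 50 µg/L. These genes took 8.95 to 10.6% of the counts in females and between 0.0827 and 0.103% in 5 of the males, among them the 3 at 50 µg/L. They took 3.25 and 4.29% in male control replicates 2 and 3 and 2.16 and 2.14% in male 0.5 µg/L replicates 2 and 3. A vitellogenin-like gene, LOC111704362, whose name is that of the egg yolk precursor, had 28.1 and 44.0 CPM in those controls and 6.29 and 6.70 CPM in those 0.5 µg/L males, against at most 1.14 CPM in the other males and 47.4 to 145 CPM in females. The contrasts between the sexes, the repeats of the rule and the comparisons between concentrations in males are also given without them.

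The male-biased genes took 9.06 to 15.6% of the counts of a male library and almost none of those of a female library. Their summed share of counts was 15.6, 9.06 and 9.10% in male control replicates 1, 2 and 3. At 0.5 µg/L it was 15.4, 10.6 and 10.4%, and at 50 µg/L 11.5, 11.3 and 9.71%. In females the share was 0.00361 to 0.00745% in 8 libraries and 0.0351% in replicate 1 at 50 µg/L. No male library overlapped a female library, and the female library that stood highest lay 258-fold below the lowest male library.

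**Figure D1:**
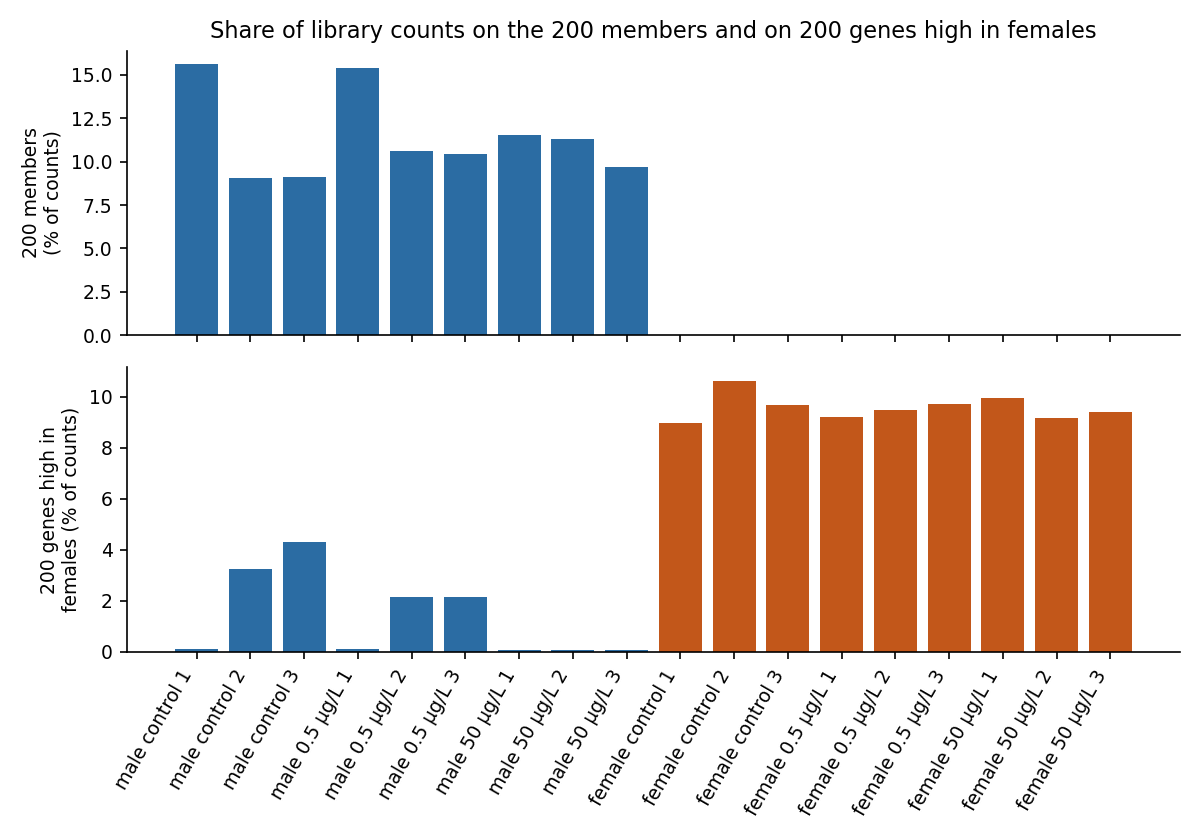
Share of the counts of each library (%) that fell on the 200 male-biased genes (top) and on 200 genes picked as high in females (bottom), with males in blue and females in orange and 1 bar per library. The male-biased genes hold 9.06 to 15.6% of male counts, and the 4 male libraries with 2.14 to 4.29% on the genes high in females are control and 0.5 µg/L replicates 2 and 3.

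The genes were of moderate to high level in males. In male controls 23 of them had a mean of at least 1000 CPM, 147 lay between 100 and 1000 CPM and 30 lay below 100 CPM, with a median of 239 CPM. The corresponding medians were 276 CPM at 0.5 µg/L and 221 CPM at 50 µg/L. The 10 genes with the highest mean over control and 0.5 µg/L males held 35.7 to 44.3% of all counts on the list, so a few transcripts weigh on every sum over it. In females the median was 0.134 CPM in controls, 0.139 CPM at 0.5 µg/L and 0.388 CPM at 50 µg/L.

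**Figure D2:**
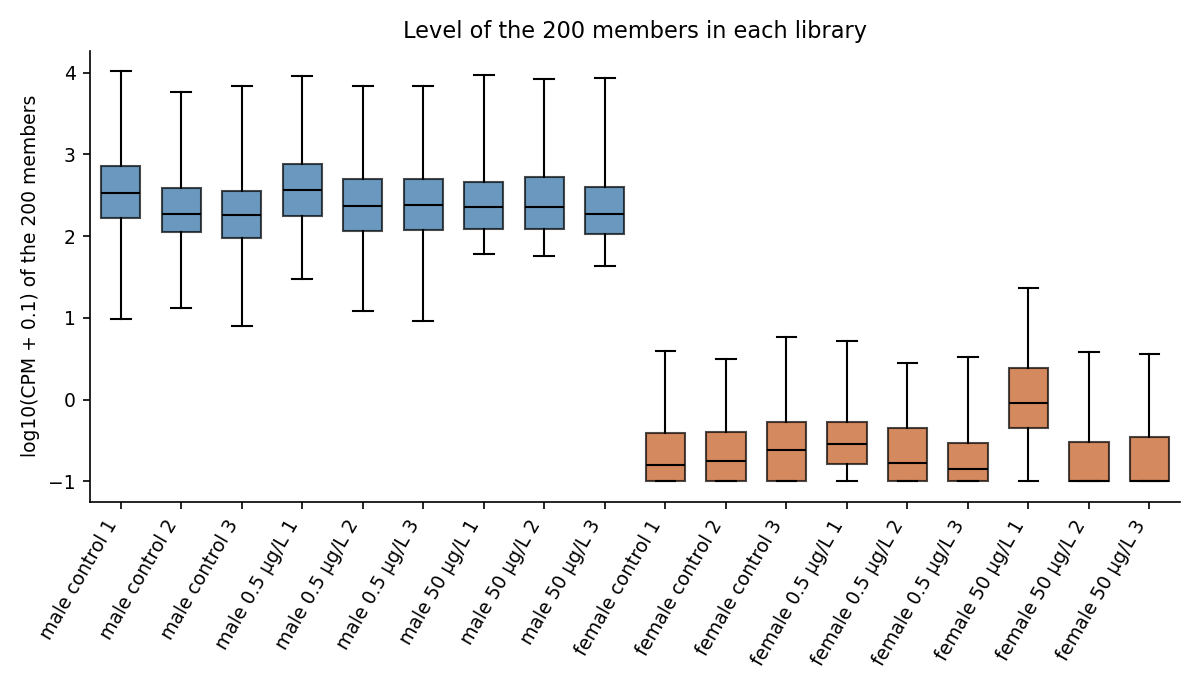
Level of the 200 genes in each library as log10(CPM + 0.1), with the box from the lower to the upper quartile of the genes, the line at the median and the whiskers at the lowest and highest gene, males in blue and females in orange. The median of every male library lies above that of every female library, but the whiskers overlap. The lowest gene of male control replicate 3 has 7.88 CPM, and the highest of female 50 µg/L replicate 1 has 23.1 CPM. That female library has the highest median of the females, 0.809 CPM against 0 in replicates 2 and 3.

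The names used here come from the gene tables of the study alone, since a genome annotation was not used here. These tables name 1434 genes that the study listed as changed by TEB, where 23728 genes were counted, and 6 of the 200 are among them. These are LOC111714314 (neuropeptide-like protein 32), LOC111708797 (protein disulfide-isomerase-like), LOC111713746 (uncharacterized protein DDB_G0290685-like) and LOC111706022, LOC111703324 and LOC111714888, which are listed as uncharacterized. A protein disulfide isomerase forms and rearranges disulfide bonds in proteins that pass through the endoplasmic reticulum. DDB_G0290685 is the identifier of a gene of the slime mould Dictyostelium, and the name gives no function. The names thus cover only genes that the study picked for a response to TEB. Of 14 lists of name words, from muscle and tubulin to proteases, cuticle, detoxification and germ line, only the neural list took a member, by the word neuropeptide in LOC111714314. The other 194 genes are given by their identifier.

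In controls, all 200 genes were higher in males. Of the 17880 genes tested, 33.8% were called higher in males, and of the 3472 genes with at least 50 CPM in males at 50 µg/L, 37.8% were. No gene of the 200 was called lower, against 10.4% and 2.71%. A call meant an adjusted p of at most 0.05 and a change of at least 2-fold in edgeR's quasi-likelihood test with Benjamini-Hochberg adjustment over all genes. In whole animals, more cells of a type and more RNA per cell cannot be told apart. The log2 fold changes of the 200 ran from 5.59 to 16.77 with a median of 11.07, beside a median of 0.24 over all genes tested, and the highest adjusted p among them was 3.01e-04. DESeq2 and edgeR's likelihood ratio test called all 200 as well, with 50.4 and 48.2% of all genes called in either direction. All 3 male controls lay above all 3 female controls for 200 of 200 genes, against 30.3% of all genes with a count and 45.1% of those 3472.

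All 200 genes were called higher in males at 0.5 µg/L too, against 40.2% of all genes tested and 39.5% of the 3472, and none lower, against 20.7 and 9.91%. They had log2 fold changes from 6.46 to 18.55, a median of 11.46 beside 0.47 over all genes, and adjusted p up to 2.99e-04 by the quasi-likelihood test. For the 28 genes with no count in these females, the fitted size is not a measured ratio. LOC111703331, at 18.55, is among them. DESeq2 and the likelihood ratio test called the 200 here too, with 65.4 and 63.5% of genes called in either direction. Males and females did not overlap for any of the 200, against 37.3% of all genes with a count and 48.5% of the 3472. At 50 µg/L, where the rule all but fixed it, all 200 were apart too, with 38.4 and 50.5% as the background.

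The contrasts were also fitted without the male libraries that held RNA of genes high in females. These fits leave 1 male library in the group tested, which is assumed to vary like the libraries of the other groups. Only effect sizes are given for them. Without those 4 libraries, the log2 fold changes of the 200 genes in controls ran from 5.83 to 17.52, with a median of 11.61. Without male 0.5 µg/L replicates 2 and 3, those at 0.5 µg/L ran from 6.41 to 19.00, with a median of 11.84.

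**Figure D3:**
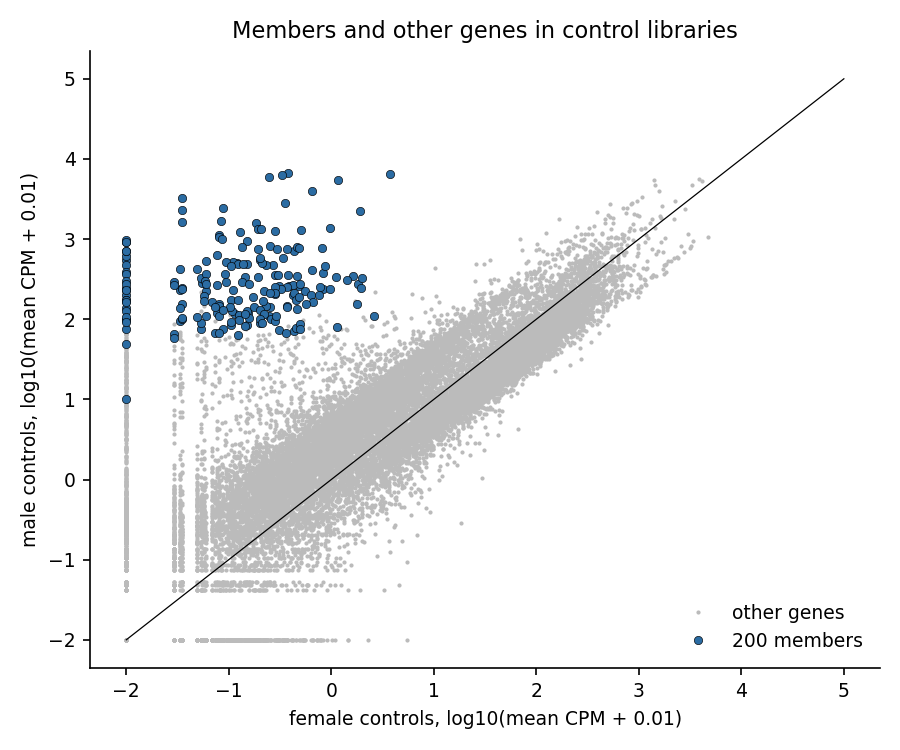
Mean level of each gene in the 3 male controls against the 3 female controls, both as log10(mean CPM + 0.01), with the 200 male-biased genes in blue, the other genes in grey and equal levels on the line. The 200 genes lie at the upper left, with medians of 239 CPM in males and 0.134 CPM in females. The column at the far left holds the 29 of them with no count in female controls. The 200 genes were cut from a continuous slope, and the top 200 by the same rule in these controls held 182 of them.

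The gap was wide because females were near 0. In female controls, 29 of the 200 genes had no count in any library and 44 had 1 to 3 counts over the group, from 13325753 to 17114866 counts per library. At 0.5 µg/L these numbers were 28 and 46. Where a gene had no count in females, its fitted log2 fold change between the sexes is not a measured size. With genes at 0 set to 3 counts over the group, the ratio of pooled CPM between males and females had a median of 1743 in controls and 2101 at 0.5 µg/L. The lowest ratio was 40.0 in controls and 77.0 at 0.5 µg/L. At 50 µg/L the median ratio was 571, and it was 1099 without female replicate 1.

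A set of 17 genes had no count in any of the 6 female libraries of controls and 0.5 µg/L, and of these only LOC111698560 had none in the females at 50 µg/L either. In males it was a gene of low level for the list, with 98.5, 69.9 and 57.6 CPM in controls, 61.8, 68.5 and 55.5 CPM at 0.5 µg/L and 77.9, 80.1 and 60.6 CPM at 50 µg/L. It was at least 1102-fold higher in males in controls and at least 843-fold higher at 0.5 µg/L, against a floor of 3 counts over the female group.

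LOC111702461, first by the rule, was a main transcript of males. It had 7026, 5748 and 5177 CPM in male control replicates 1, 2 and 3 and 5801, 4733 and 4561 CPM at 0.5 µg/L. Males at 50 µg/L had 5255, 3897 and 4344 CPM. The male groups overlapped, and the 9 female libraries held between 0 and 0.694 CPM. In controls it was 26424-fold higher in males (95% exact interval for counting error 14368 to 55104), a log2 fold change of 14.81 ± 0.74 (SE) with an adjusted p of 3.07e-08 by the quasi-likelihood test.

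LOC111712816 had the highest mean level of the list, with 8914, 4121 and 6773 CPM in male controls, 8164, 6807 and 6787 CPM at 0.5 µg/L and 9222, 8368 and 8649 CPM at 50 µg/L. Females held 0.292, 0.450 and 0.355 CPM in controls and 0.0620, 0.481 and 0.587 CPM at 0.5 µg/L. At 50 µg/L, female replicates 2 and 3 had 0.102 and 0 CPM while replicate 1 had 4.97 CPM. That female library stood above all 8 others. The log2 fold change between the sexes was 14.32 ± 0.67 in controls and 14.49 ± 0.67 at 0.5 µg/L, with adjusted p of 1.28e-08 and 1.26e-08.

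LOC111694798 was the member of the top 10 with the most RNA in females. Male controls had 8243, 5204 and 6169 CPM and female controls 2.57, 2.78 and 5.76 CPM, a log2 fold change of 11.00 ± 0.51 with an adjusted p of 5.93e-09. At 0.5 µg/L males had 6823, 5426 and 5491 CPM and females 4.03, 1.99 and 1.86 CPM. With 113 to 162 counts in each female group, it was one of the few genes whose low level in females was well measured.

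The other genes of the top 10 were LOC111706020, LOC111699648, LOC111698521, LOC111697186, LOC111704861, LOC111705944 and LOC111699053. Their means in male controls ran from 1136 CPM for LOC111699053 to 5405 CPM for LOC111698521, and their log2 fold changes in controls from 12.38 to 16.27. The widest of them, LOC111697186, had 2745, 2139 and 2112 CPM in male controls and a single count over the 3 female controls, so that its ratio of 102696 had a counting interval that began at 18431. At 0.5 µg/L, with 9 counts in females, its ratio was 9170.3 (4830.4 to 20056). The order of such genes by fold is set by a few counts in females.

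The widest fitted difference of all 200 belonged to LOC111703331, with 5044, 2556 and 2091 CPM in male controls and 4873, 3282 and 3214 CPM at 0.5 µg/L. It had 1 count over the female controls and none in females at 0.5 µg/L, where it was at least 50767-fold higher in males. At 50 µg/L males had 2003, 2244 and 1499 CPM, and all 72 counts in females lay in replicate 1, at 8.32 CPM.

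At the other end, LOC111708797 (protein disulfide-isomerase-like) had the smallest difference in controls. Male controls held 124, 61.8 and 145 CPM and female controls 3.86, 2.03 and 1.85 CPM, a 40.0-fold difference (interval 33.3 to 48.4) and a log2 fold change of 5.59 ± 0.42 with an adjusted p of 3.76e-07. The next smallest in controls were LOC111712712, LOC111707297, LOC111700354 and LOC111713612, at 6.36, 6.63, 7.20 and 7.48. Their female control means of 1.12 to 1.95 CPM were well above the median of the list in females.

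The same rule applied to the other concentrations found most of the genes again. Ranked on the control libraries, the top 200 held 182 of the 200 (91.0%), and ranked on the 0.5 µg/L libraries 173 (86.5%). With male replicate 1 alone for the male level, these numbers were 175 (87.5%) and 171 (85.5%). All but 2 of the 18 genes missed in controls and all but 1 of the 27 missed at 0.5 µg/L had the minimum level and stood no lower than rank 275 and 296. The genes below the minimum were LOC111714314 at both and LOC111705926 in controls. 

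None of the 200 genes was called between 0.5 µg/L and control males. Among the 200, 1 had an unadjusted p under 0.05, beside 693 of the 17492 genes tested, and 0 genes of the whole table were called (0%). DESeq2 and edgeR's likelihood ratio test called 0 of the 200 as well, each with 1 of the 200 at an unadjusted p under 0.05, and 3 and 7 genes of the table (0.0172 and 0.04%). The log2 changes of the 200 ran from -0.43 to 0.87 with a median of 0.21, beside a median of -0.0039 over all genes.

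This median turned on single libraries. Without male control replicate 1 it was 0.76, with 121 of the 200 at an unadjusted p under 0.05 and a lowest adjusted p of 0.0786. Without male 0.5 µg/L replicate 1 it was -0.09, and without male control replicate 3 it was -0.02. Without male control replicates 2 and 3 together, the controls with RNA of genes high in females, it was -0.44, in a fit with a single control that is assumed to vary like the other group. Between replicate 1 of both groups, the 2 libraries with little of that RNA, the median ratio of 0.5 µg/L to control was 1.06, with 77 of the 200 genes below 1. No member was called in the fits that left out 1 library. With the replicate number as a block the median was 0.30, with 21 of the 200 at an unadjusted p under 0.05 and none called.

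The gene with the unadjusted p under 0.05 was LOC111708797. Its 234, 183 and 172 CPM in males at 0.5 µg/L lay above its 3 controls, of which the highest had 145 CPM, and it was the only one of the 200 genes whose groups did not overlap in this comparison (0.5%, against 4.07% above and 3.13% below of 3806 genes with a mean of at least 50 CPM over all males). None of the 200 reached 2-fold, against 0.21 and 0.289% of those 3806 genes. Its log2 change was 0.87 ± 0.31 (SE), with an adjusted p of 0.942 by the quasi-likelihood test. In females it had 2.17, 1.03 and 1.08 CPM at 0.5 µg/L against 3.86, 2.03 and 1.85 CPM in controls. The difference between the sexes in this change was 1.70 ± 0.53 on the log2 scale, with an adjusted p of 0.833.

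In females only 27 of the 200 genes had enough counts for a test of 0.5 µg/L against controls, and 0 of these were called by the quasi-likelihood test, with 0 at an unadjusted p under 0.05. DESeq2 and the likelihood ratio test called 0 of the 27 as well, and 0.045 and 0.0321% of all genes. The rest were too low in these females to pass the filter on low counts. Without the filter, 199 of the 200 were tested by the quasi-likelihood test. Of these 3 had an unadjusted p under 0.05, beside 637 of 21884 genes, and 0 were called. In the fit of 12 libraries of both sexes, the same test covered all 200. There 21 had an unadjusted p under 0.05, beside 598 of 17880 genes, and 0 were called. At counts this low, a fall in females was hardly detectable. The interaction of sex and 0.5 µg/L called 0 of the 200, with 19 at an unadjusted p under 0.05 beside 956 of 17880 genes, and DESeq2 and the likelihood ratio test called 0 of the 200, with 19 and 22, and 0.173 and 0.229% of all genes. With so few counts in females, an interaction was hardly detectable for single genes.

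The level in males at 50 µg/L was near the mean of the 3 controls for most genes and below control replicate 1 for most. These values took part in the choice of the genes, which favours a high level at 50 µg/L, and in males the concentration and the flow cell cannot be told apart. The log2 ratio of means, with 1 CPM added, had a median of -0.06 against controls over the 200, beside -0.07 over the 3806 genes with a mean of at least 50 CPM over all males. Of the 200, 194 stayed within 2-fold of the mean of the controls, 3 were higher by more and 3 were lower by more. The share of the 3806 genes past 2-fold was 1.92% upward and 7.86% downward. Against 0.5 µg/L the median was -0.27, beside -0.03 over the 3806 genes, with 2 genes higher and 9 lower by 2-fold or more (background 0.841 and 4.1%).

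Without replicates 2 and 3, the libraries with RNA of genes high in females, more of the genes were lower at 50 µg/L. Against control replicate 1 alone the median was -0.54 on the log2 scale, beside 0.05 over the 3806 genes, and 33 of the 200 were lower and 3 higher by 2-fold or more (background 2.05 and 1.47%). All 3 libraries at 50 µg/L lay below that library for 157 of the 200 (78.5%), against 27.6% of the 3806, and above it for 9 (4.5%, against 37.4%). Against 0.5 µg/L replicate 1 alone the median was -0.68, beside 0.07, with 35 lower and 3 higher by 2-fold or more (2.81 and 0.552%). These are ratios to a single library, with no measure of its spread.

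The 6 genes past 2-fold against the mean of the controls were the 6 with an entry in the gene tables of the study. Those tables were made from these libraries, so the match adds nothing to the values. LOC111714314, neuropeptide-like protein 32, moved furthest. It had 9.48, 13.3 and 7.88 CPM in male controls, 29.8, 12.1 and 9.01 CPM at 0.5 µg/L and 113, 107 and 60.3 CPM at 50 µg/L. All 3 libraries at 50 µg/L lay above all 6 other male libraries, and the ratio to controls was 3.08 on the log2 scale, from 2.92 to 3.31 with any 1 library left out.

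LOC111714314 had no count in any female of the controls or of 0.5 µg/L and 6 counts in females at 50 µg/L, all in replicate 1. It was at least 155-fold higher in males in controls and at least 220.2-fold higher at 0.5 µg/L. That library stood at 0.741% of the level in males. The gene entered the list through its level at 50 µg/L alone, as its mean of 10.2 CPM in controls was under the minimum of 50 CPM.

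LOC111708797 had means of 110.4 ± 43.4, 196 ± 33.2 and 274 ± 66.3 CPM (SD, n = 3) in male controls and males of the 0.5 and 50 µg/L groups. Its libraries at 50 µg/L had 198, 298 and 324 CPM, above all controls, and they overlapped those at 0.5 µg/L. The ratio to controls was 1.30 on the log2 scale (1.02 to 1.55 with 1 library left out). In females its means were 2.58 ± 1.11, 1.43 ± 0.644 and 1.23 ± 0.852 CPM, with overlap between the groups. The ratio between the sexes was thus 40.0 in controls, 130.0 at 0.5 µg/L and 226 at 50 µg/L, where the choice of the genes favours a wide ratio.

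LOC111706022, uncharacterized, had 109.6, 53.5 and 191 CPM in male controls, 132, 123 and 123 CPM at 0.5 µg/L and 289.7, 224 and 445 CPM at 50 µg/L. All libraries at 50 µg/L lay above the other 6. The ratio to controls was 1.43 on the log2 scale (1.08 to 1.96 with 1 library left out).

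The 3 genes that were lower at 50 µg/L were alike in their pattern. LOC111703324 had 535, 289.8 and 248 CPM in male controls, 479.7, 334 and 356 CPM at 0.5 µg/L and 119.7, 151 and 94.5 CPM at 50 µg/L. LOC111714888 had 404, 176 and 123 CPM in controls, 308, 280.2 and 317 CPM at 0.5 µg/L and 92.0, 104 and 64.0 CPM at 50 µg/L. LOC111713746 had 305, 139.7 and 128 CPM in controls, 277, 177 and 155 CPM at 0.5 µg/L and 84.5, 98.1 and 72.5 CPM at 50 µg/L. For each, all libraries at 50 µg/L lay below the other 6, and control replicate 1 was the highest of all male libraries.

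Their log2 ratios to controls were -1.55, -1.42 and -1.16. With any 1 library left out they ran from -1.75 to -1.14, from -1.73 to -0.78 and from -1.37 to -0.65, and against control replicate 1 alone, the control without RNA of genes high in females, they were -2.12, -2.21 and -1.83. None lost its direction. LOC111714888 had no count in female controls or females at 0.5 µg/L.

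**Figure D4:**
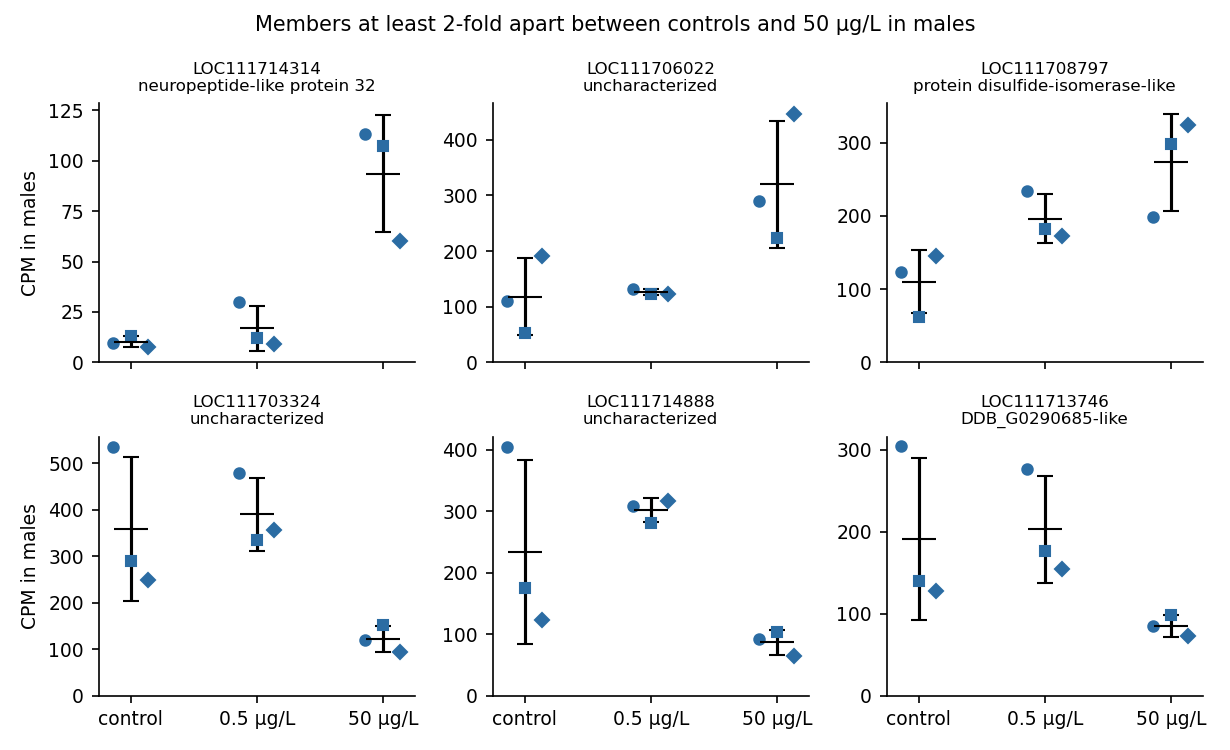
Level (CPM) of the 6 genes at least 2-fold apart between controls and 50 µg/L in males, in each male library (circle, square and diamond for replicates 1, 2 and 3) with the mean and SD of each group of 3 as a bar. LOC111714314, LOC111706022 and LOC111708797 are highest at 50 µg/L, and LOC111703324, LOC111714888 and LOC111713746 are lowest there, below all libraries of the other groups.

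The next in size were LOC111711794 and LOC111716832, with log2 ratios to controls of 0.88 and 0.86, and LOC111706766 and LOC111708275, with -0.92 and -0.87. LOC111711794 had 719.5, 203 and 517 CPM in male controls and 713, 909.7 and 1027 CPM at 50 µg/L, so the groups overlapped through control replicate 1. Over the 200 genes, all males at 50 µg/L lay above all controls for 9 (4.5%) and below all controls for 12 (6%), where 14.5 and 12.5% of the 3806 genes did. Above all controls and all 0.5 µg/L males were 5 genes, and below them 12 (9.93 and 6.54% of the 3806). These shares, which include control replicates 2 and 3, were below or near those of the 3806 genes.

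The level of the genes varied between the male pools of a group. The coefficient of variation of a gene over the 3 males had a median of 41.3% in controls, 26.4% at 0.5 µg/L and 17.7% at 50 µg/L. In controls, the mean of replicates 2 and 3 was below replicate 1 for 194 of the 200 genes, with a median ratio of 0.549. At 0.5 µg/L it was below replicate 1 for 186, with a median ratio of 0.651. These are the 4 libraries with 2.14 to 4.29% of their counts on genes high in females. The part of that RNA in the lower level of the male-biased genes was not tested.

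The lower level in replicates 2 and 3 was uneven over the genes. In controls the ratio ran from 0.288 to 1.24, and 68 of the 200 were below 0.5. LOC111699018 had 4958 CPM in replicate 1 and 1746 and 1806 CPM in replicates 2 and 3, and LOC111714541 had 10374, 4702 and 3744 CPM. By contrast LOC111702461 had 7026, 5748 and 5177 CPM. The ratios of these genes in the same libraries were thus 0.358, 0.407 and 0.777.

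The ratios in the 2 groups went together. Across the 200 genes, the log2 ratio of replicates 2 and 3 to replicate 1 in controls and the same ratio at 0.5 µg/L, which share no library, had a Pearson r of 0.596 and a Spearman rho of 0.647. Genes are not independent replicates, so this is a description. LOC111699018 and LOC111714541 had ratios of 0.464 and 0.549 at 0.5 µg/L and LOC111702461 a ratio of 0.801. Of the 10 genes with the highest rank, 8 were among the 50 genes with the highest ratio in controls, and LOC111712816 and LOC111694798 were among the next 50.

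**Figure D5:**
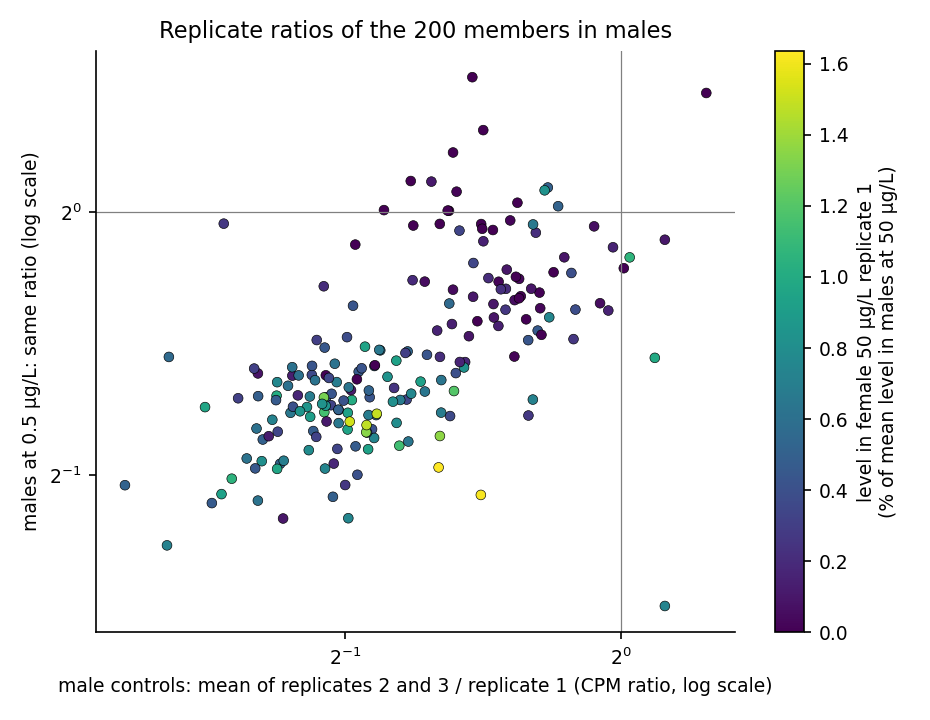
Each point is 1 of the 200 genes, placed by its mean CPM in replicates 2 and 3 over its CPM in replicate 1 in male controls (x) and in males at 0.5 µg/L (y), both on log scales, and coloured by its level in female 50 µg/L replicate 1 as a percentage of its mean in males at 50 µg/L. Most points lie below 1 on both axes, with medians of 0.549 and 0.651. The colour value had a Spearman rho of -0.39 with the ratio in controls and -0.621 with that at 0.5 µg/L. The gene of highest colour value, LOC111702084, lies at 0.633 in controls and 0.510 at 0.5 µg/L.

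The males at 50 µg/L had 0.0827 to 0.0898% of their counts on the genes high in females, a list chosen to be low in these males. They were not at the level of control replicate 1 either. Their median ratio to that library was 0.702, 0.755 and 0.599 for replicates 1, 2 and 3. The genes split in the same way. In the 50 genes with the lowest ratio in controls, the median ratio of the mean at 50 µg/L to control replicate 1 was 0.550, and in the 50 with the highest 0.876. As both ratios share control replicate 1, the likeness is partly fixed. Against 0.5 µg/L replicate 1 in place of it, the relation across the 200 genes had a Pearson r of 0.631 and a Spearman rho of 0.661. The level at 50 µg/L took part in the choice of the genes, and genes are not independent replicates, so these values only describe the list.

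In females, replicate 1 at 50 µg/L held more of the male-biased RNA than any other female pool. It had 3040 counts on the 200 genes, 0.0351% of its total, against 355 and 346 counts in replicates 2 and 3. It was above the mean of these replicates for 165 of the 200 genes. The level reached a median of 0.422% of the mean male level at 50 µg/L in replicate 1 and 0.0187% in the mean of replicates 2 and 3. As this library was 1 of the 3 that set the female mean of the rule, genes with much RNA in it were less likely to enter the list.

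This RNA was not spread over the genes in the ratio found in males. LOC111714541 had 23.1 CPM in replicate 1 and 0.407 and 0.376 CPM in replicates 2 and 3, and LOC111699018 had 12.4, 0.102 and 0 CPM. LOC111702461, of like level in males, had 0.694, 0 and 0 CPM. As a percentage of the level in males at 50 µg/L, replicate 1 stood at 0.505, 0.465 and 0.0154 for these genes, and the highest of the list was LOC111702084, at 1.64, with 3.12 CPM in replicate 1 and none in the other females at 50 µg/L.

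The genes with more RNA in this female pool tended to have lower ratios in male replicates 2 and 3. In sets of 50 genes from the lowest to the highest ratio in control males, the median over genes of the level in female replicate 1 was 0.604, 0.497, 0.320 and 0.104% of that in males at 50 µg/L. With CPM summed over each set it was 0.543, 0.580, 0.237 and 0.105%, highest in the set next to the lowest. Across the 200 genes, this percentage had a Spearman rho of -0.39 with the ratio in controls and -0.621 with that at 0.5 µg/L. The sets overlapped, with 0.0873 to 1.30% in the lowest and 0 to 1.07% in the highest. In the lowest set the counts were 1267 in replicate 1 and 76 and 41 in replicates 2 and 3, and in the highest 327, 127 and 114. Both levels in this percentage took part in the choice of the genes, so this is a description of the list alone.

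The 10 genes with the highest level in control and 0.5 µg/L males show both patterns. LOC111714541, LOC111699018 and LOC111703331 had ratios of 0.358 to 0.461 in control males and 8.32 to 23.1 CPM in female 50 µg/L replicate 1. The other 7 had ratios of 0.611 to 0.816 and 0.578 to 6.94 CPM in that female library. The highest of these, LOC111706028, had a ratio of 0.807 with 6.94 CPM, close to the 8.32 CPM of LOC111703331. The sets of 50 were drawn from the control males after their values were seen.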

How the data were processed

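The values were raw counts per gene that the authors deposited for 18 libraries, made from single-end reads trimmed with Trimmomatic, mapped by STAR on the assembly Eaff_2.0 and assigned to genes by featureCounts. The sources used here do not say whether counting used strand, so genes that overlap or share sequence may trade reads. The pools were labelled as replicates 1 to 3 of each group, and 0 columns of other samples were present. The 200 genes and the lists of names were chosen with earlier results of these data known. CPM was the count over the library total, unscaled.

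Tests were run in R 4.3.3 with edgeR 4.0.16 (default filter on low counts, TMM factors, robust quasi-likelihood test) on all genes. The sex contrasts and the interaction used the 12 libraries of controls and 0.5 µg/L, and 0.5 µg/L against control the 9 libraries of a sex. The SE of a log2 fold change was its size over the square root of the F value of the quasi-likelihood test. It is approximate for genes with few counts in females. DESeq2 1.42.0, edgeR's likelihood ratio test, other scalings, no filter, other sets of libraries, a replicate block and each replicate left out were alternatives. The steps were tested on simulated counts.

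Same-numbered replicates were checked for pairing by the correlation of their deviations from group means over genes. Between control and 0.5 µg/L males these were 0.597, 0.273 and 0.361, all over 0.1, so values with the replicate number as a block are also given. The main test has no block. Replicates 2 and 3 correlated as much across numbers (0.284 and 0.32), so the data do not show that the pools were matched. No other pair of groups had all 3 over 0.1. No library was a copy of another.

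Genes named singly were the 10 highest by the rule, the 10 highest by level in control and 0.5 µg/L males, those at the edge of the rule, the 5 with the smallest sex difference in controls, the 5 that rose and the 5 that fell most in males at 50 µg/L, and the list members. LOC111698560, LOC111705926 and LOC111702084 were chosen after their values were seen. Ratios of pooled counts have exact 95% intervals, which cover counting error only, and the floor was 3 counts over the group. The separate pools make p-values a measure of the spread between pools of 30 animals.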

Additional observations from a re-analysis of the deposited data

How the results depend on the processing

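All 200 genes were called higher in males in controls and at 0.5 µg/L under every tool, scaling and filter run, the replicate block included (200 and 200). The same held for every set of libraries with more than 1 pool in each group. With each replicate left out the count was 200 throughout, with median log2 fold changes of 10.66 to 11.43 in controls and 11.20 to 12.02 at 0.5 µg/L. None of the 200 was called between 0.5 µg/L and control in males or females, or in the interaction, with or without the block or any replicate. The rule found 179 to 184 of the 200 again in controls and 171 to 176 at 0.5 µg/L with a library left out, 170 and 174 with a minimum of 100 CPM, and 175 and 171 with male replicate 1 alone. Without male replicates 2 and 3, the genes lower by 2-fold at 50 µg/L numbered 33 in place of 3 against controls and 35 in place of 9 against 0.5 µg/L, a choice made after seeing the data. TMM scaling moved the median level in males at 50 µg/L from 221 to 249 CPM, past the SD of its replicates, and the other 5 group medians by less than theirs. The median ratio between the sexes at 50 µg/L ran from 383 to 1099 with a library left out, the highest without female replicate 1.

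Scaling moved the number of calls over all genes. Over all genes in controls, 6049 were called higher and 1860 lower in males with TMM factors, and 5497 and 2810 with library totals, where the median of all genes was 0.06 in place of 0.24. At 0.5 µg/L it was 0.25 in place of 0.47. For the genes near 0 in females, depth limits any statement on a change in females.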
